A study of Mus musculus with 4 samples.

Results

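Antigen presentation by MHC class II was described through 8 genes in single-nucleus libraries of injured mouse liver. They were taken by symbol from the gene lists of the deposited files, where each symbol occurred once, and are 8 of 32285 genes. The set holds the peptide-binding chains H2-Aa, H2-Ab1 and H2-Eb1, the peptide exchange chains H2-DMa, H2-DMb1 and H2-DMb2, the invariant chain Cd74 and the transactivator Ciita. CKO mice lack Rbpj, which encodes the nuclear effector of Notch receptors, in their hepatic progenitor cells; WT mice carry it. All were males on DDC, a porphyrin-inducing diet that injures bile ducts; the diet began at 10 to 11 weeks of age and lasted 4 weeks, so no uninjured liver was compared. There were 2 CKO and 2 WT libraries. The labels give neither the driver of the deletion nor the deleted exons, and do not say whether a library is 1 animal or a pool. The p-values thus refer to spread between these libraries, which may be technical. edgeR estimates that spread largely from all genes together, not from the values of each gene alone. Rbpj itself stood at 73.0 and 29.7 UMIs per 1000000 (CPM) in the CKO and 77.7 and 66.9 CPM in the WT replicates 1 and 2 in cholangiocyte-like nuclei, on 107, 2, 343 and 43 UMIs, and 3' tags outside a deleted exon do not check a deletion.

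MHC class II molecules display peptides from endocytosed proteins to CD4 T cells. An alpha and a beta chain pair in the endoplasmic reticulum around the invariant chain Cd74, which blocks the groove and guides the complex to endosomes, and H2-DM then exchanges the remnant of Cd74 for antigenic peptide. CIITA does not bind DNA itself: it is recruited by RFX, CREB and NF-Y factors at the X and Y boxes upstream of class II genes and acts as their master coactivator. Dendritic cells, B cells and macrophages use the pathway constitutively or on activation, and interferon gamma induces Ciita in many other cells. In liver, Kupffer cells, infiltrating monocyte-derived macrophages and sinusoidal endothelial cells can all present through it.

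The class II genes lie close together on chromosome 17 of GRCm38 (GENCODE M21 coordinates): H2-DMa at chr17:34119541-34139101, H2-DMb2 at chr17:34143307-34151555, H2-DMb1 at chr17:34153072-34160230, H2-Ab1 at chr17:34257689-34269419 and H2-Eb1 at chr17:34305867-34316674 on the plus strand, and H2-Aa at chr17:34282744-34287823 on the minus strand. Ciita lies on chromosome 16 (chr16:10480059-10528418, plus strand). Counted genes overlap H2-Eb1 (Gm20513), H2-DMa (Brd2, CR974462.3 and CR974462.4) and Ciita (Dexi), all on the opposite strand except CR974462.3, and the strand setting of the counting is not given in the sources used here. Transcripts of H2-DMb1 and H2-DMb2 are 87.7% identical over 1144 aligned bases with an identical run of 221 bases, longer than a read, so the division of reads between them is uncertain.

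Promoters of 5 of the 8 genes were read from the RefSeq table of GRCm38.p6 (250 bases before to 50 bases after the annotated start). Ciita and H2-Ab1 had no entry there, and Cd74 was left out of this reading. The 4 below are shown because they hold both motifs through which Ciita is known to act, 5′ to 3′ on the coding strand. Capitals mark an X box start, spelled CTNNNAAC, and a Y box, TGATTGG, which is the NF-Y core. H2-Aa is chr17:34287774-34288073 (minus strand), H2-Eb1 chr17:34305617-34305916, H2-DMb1 chr17:34152941-34153240 and H2-DMb2 chr17:34144999-34145298 (plus strand).
H2-Aa: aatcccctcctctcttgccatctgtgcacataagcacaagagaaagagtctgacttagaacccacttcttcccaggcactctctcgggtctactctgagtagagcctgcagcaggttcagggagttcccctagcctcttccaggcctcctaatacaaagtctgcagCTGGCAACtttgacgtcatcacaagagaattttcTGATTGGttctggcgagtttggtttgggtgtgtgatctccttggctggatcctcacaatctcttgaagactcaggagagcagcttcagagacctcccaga
H2-Eb1: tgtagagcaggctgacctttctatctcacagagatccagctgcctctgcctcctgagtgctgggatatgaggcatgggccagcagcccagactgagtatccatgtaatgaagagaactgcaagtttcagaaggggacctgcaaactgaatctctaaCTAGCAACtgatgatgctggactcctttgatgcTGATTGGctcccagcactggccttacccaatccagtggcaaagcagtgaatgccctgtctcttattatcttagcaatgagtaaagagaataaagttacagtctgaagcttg
H2-DMb1: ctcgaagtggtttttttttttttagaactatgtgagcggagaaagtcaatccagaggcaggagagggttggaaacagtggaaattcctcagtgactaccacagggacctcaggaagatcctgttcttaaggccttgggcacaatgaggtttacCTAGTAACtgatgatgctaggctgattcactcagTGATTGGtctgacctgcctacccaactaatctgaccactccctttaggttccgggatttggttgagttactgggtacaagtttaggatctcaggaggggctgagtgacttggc
H2-DMb2: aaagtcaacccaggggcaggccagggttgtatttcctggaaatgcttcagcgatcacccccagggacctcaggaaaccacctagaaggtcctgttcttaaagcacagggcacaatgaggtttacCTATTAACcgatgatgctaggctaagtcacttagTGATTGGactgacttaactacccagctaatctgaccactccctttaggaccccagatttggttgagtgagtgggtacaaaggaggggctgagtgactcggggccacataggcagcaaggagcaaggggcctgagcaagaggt

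In each of these 4 promoters the first capital run began 33 or 34 bases upstream of the Y box. The letters were spelled with these promoters in view. Searched on both strands with starts 28 to 38 bases apart, the pair of runs was found in 31 of 32851 promoters (0.0944%), the Y box alone in 7.82% and the X box start alone in 41.1%. The motifs share no bases. The other genes among the 31 promoters include H2-Ob, a chain of the H2-DM inhibitor. Neither of the 2 promoters of H2-DMa in the table held the pair, which says only that these letters are not in those windows.

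The libraries held 16000 and 5184 barcodes in CKO replicates 1 and 2 and 16000 and 6480 in WT replicates 1 and 2, with 38003108, 12261329, 45620141 and 13914845 UMIs and median depths of 1722 to 2267 UMIs. Pairs of libraries shared 19 to 114 barcodes, at most 1.138% of the smaller library. After 4647 barcodes with the highest doublet scores had been removed, 39017 were clustered without the 8 genes, and 18255 fell into classes named from marker genes, which means resemblance to those markers, or into 1 immune sub-cluster of 307 nuclei that kept no name. The remaining 20762 barcodes raised too few markers over free RNA, and libraries stood apart in them: each library had an unnamed cluster of its own. Macrophage-like nuclei also split by library before sub-clustering on values centred per library: those of CKO replicate 1 formed 1 cluster, and those of the other libraries filled a pair of others. Hepatocyte-like nuclei split by library as well, with a main cluster for each, and most endothelial-like nuclei of CKO replicate 1 lay in a cluster apart. Those classes were not clustered again on centred values. All 14 macrophage markers had UMIs in the macrophage-like nuclei of every library, with summed levels of 3101 and 2929 CPM in the CKO and 4220 and 3221 CPM in the WT libraries. Of 16 dendritic markers, 13 and 9 had UMIs in the Flt3 dendritic-like nuclei of the CKO and 14 and 7 in those of the WT libraries, and of 12 B cell markers 12 and 5 in B-like nuclei of the CKO and 12 and 3 in those of the WT libraries.

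Ciita was highest in dendritic nuclei led by Ccser1, Wdfy4, Itgae and Flt3 (Flt3 dendritic-like). Those of CKO replicate 1 had 412.9 CPM (95% exact Poisson interval 312.7 to 534.9, 57 UMIs in 60 nuclei) and those of WT replicate 1 had 550.9 CPM (455.2 to 660.7, 116 UMIs in 85 nuclei). In the replicate 2 libraries only 2 CKO and 7 WT nuclei were of this type, with 2 and 3 Ciita UMIs. An immune sub-cluster that kept no name, led by Gpr141, F13a1 and Vcan and raising both macrophage and dendritic markers, followed with 183.2 CPM in CKO replicate 1 and 358.0 and 320.6 CPM in WT replicates 1 and 2. B-like nuclei had 151.8 CPM in CKO replicate 1 (54 nuclei) and 128.5 CPM in WT replicate 1 (111 nuclei), intervals that overlap. Poisson and binomial intervals here cover counting error only.

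The macrophage subtypes came next. Monocyte-derived macrophage-like nuclei, named by genes such as Gpnmb, Ms4a7 and Cx3cr1, had 61.0 and 98.0 CPM of Ciita in CKO replicates 1 and 2 and 181.4 and 60.5 CPM in WT replicates 1 and 2. Kupffer-like nuclei, the resident type with Clec4f, Timd4 and Vsig4, had 27.3 and 5.16 CPM in the CKO and 81.5 and 11.5 CPM in the WT libraries. Within every library Ciita was thus lower in Kupffer-like than in monocyte-derived macrophage-like nuclei. In the replicate 2 libraries this rests on few UMIs. Kupffer-like nuclei there had 1 in CKO and 4 in WT, and monocyte-derived macrophage-like nuclei 4 and 14. Macrophage-like nuclei of neither subtype had 56.6 and 46.7 CPM in the CKO and 181.4 and 86.3 CPM in the WT libraries, above the Kupffer-like level in all 4. Their replicate 2 values rest on 3 UMIs in CKO and 14 in WT.

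Kupffer-like nuclei averaged 31.4 CPM of Ciita, below Siglech dendritic-like nuclei at 37.0 CPM. Averaged over libraries with at least 10 nuclei the level was 20.2 CPM in mesenchymal-, 14.4 in endothelial-, 12.9 in mesothelial-, 12.6 in cholangiocyte-, 11.0 in T or NK- and 4.65 CPM in hepatocyte-like nuclei. In the order of class means, neighbours did not overlap between Flt3 dendritic-like and the unnamed immune sub-cluster, nor between that and B-like nuclei. All later neighbours overlapped over libraries, so their order is not resolved. Siglech dendritic-like nuclei, which resemble plasmacytoid cells in leading with Siglech and Tcf4, had 50.2 and 35.9 CPM in the CKO and 62.0 and 0 CPM in the WT libraries. Those values rest on 2, 1, 19 and 0 UMIs.

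**Figure D1:**
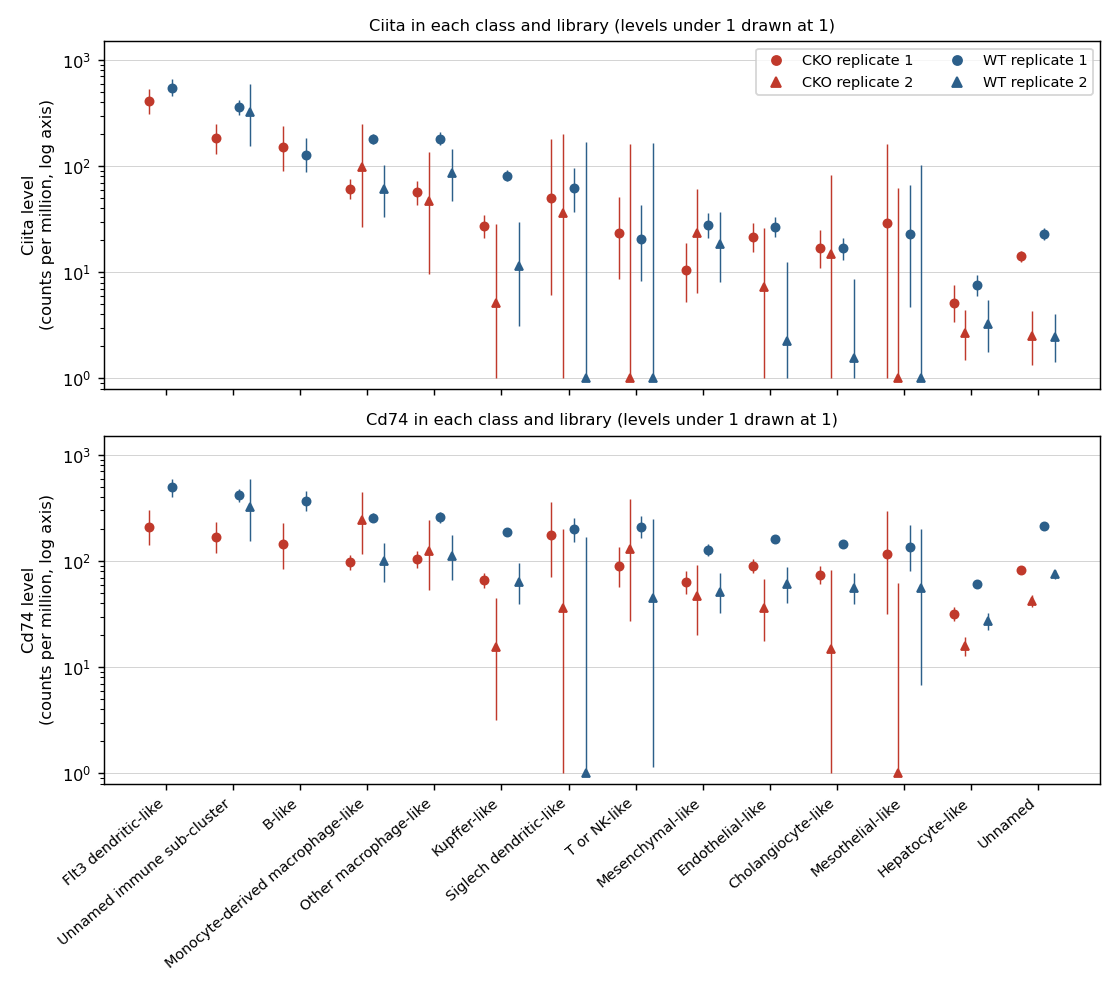
Level of Ciita (top) and Cd74 (bottom) in CPM on a log axis, by class and library; bars are 95% exact Poisson intervals, libraries with fewer than 10 nuclei of a class are not drawn and levels under 1 are drawn at 1. Ciita spans from 550.9 CPM in Flt3 dendritic-like to under 8 CPM in hepatocyte-like nuclei, while Cd74 in WT replicate 1 spans from 493.9 to 60.7 CPM over the same classes.

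Cd74, the invariant chain, lies at chr18:60803848-60812652 on the plus strand. It had the same 3 classes at the top and a flatter order below them, in which every pair of neighbours overlapped over libraries. In Flt3 dendritic-like nuclei it had 210.1 CPM in CKO replicate 1 and 493.9 CPM in WT replicate 1, and in B-like nuclei 143.3 and 368.8 CPM in the same libraries. Kupffer-like nuclei had 65.9 and 15.5 CPM in the CKO and 187.6 and 63.4 CPM in the WT libraries. The barcodes without a name had 81.9 and 42.3 CPM in the CKO and 213.3 and 74.8 CPM in the WT libraries, above the Kupffer-like level in each. Endothelial-like nuclei had 90.3 and 36.5 CPM in the CKO and 162.5 and 61.1 CPM in the WT libraries. These values lay above the Kupffer-like level in both CKO libraries and below it in both WT libraries. The level of Cd74 therefore did not separate most classes from the RNA found in unnamed barcodes.

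The peptide-binding chains showed the same order as Ciita at the top. H2-Aa, the alpha chain of I-A, had 181.1 CPM in Flt3 dendritic-like nuclei of CKO replicate 1 and 185.2 CPM in those of WT replicate 1. Its partner H2-Ab1 had 101.4 and 137.7 CPM there, and the I-E beta chain H2-Eb1 had 115.9 and 275.4 CPM. B-like nuclei held less in these libraries: 75.9 and 70.4 CPM for H2-Aa, 16.9 and 49.7 CPM for H2-Ab1 and 42.2 and 95.3 CPM for H2-Eb1. H2-Ab1 in the Flt3 dendritic-like libraries did not overlap with the next class, and all neighbours of H2-Aa and H2-Eb1 overlapped. Hepatocyte-like nuclei had the lowest mean of each chain, 7.94, 6.18 and 6.13 CPM for H2-Aa, H2-Ab1 and H2-Eb1.

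The H2-DM chains were sparse. H2-DMb1 had 36.2 CPM in Flt3 dendritic-like nuclei of CKO replicate 1 and 76.0 CPM in those of WT replicate 1, on 5 and 16 UMIs. In macrophage-like nuclei it had 13.4 and 13.4 CPM in the CKO and 39.3 and 12.2 CPM in the WT libraries. H2-DMb2 had 53, 2, 64 and 3 UMIs in all kept barcodes of CKO replicates 1 and 2 and WT replicates 1 and 2, and none in the macrophage-like nuclei of both replicate 2 libraries, which allows up to 10.0 CPM in CKO and 4.05 CPM in WT. H2-DMa had 6.07 and 4.17 CPM in all kept barcodes of the CKO and 9.19 and 5.24 CPM in those of the WT libraries. Its class means were highest in Flt3 dendritic-like (26.5 CPM on 8 UMIs) and B-like nuclei (14.7 CPM on 4 UMIs), and all neighbours in its order overlapped. In macrophage-like nuclei it had 8.12 and 3.35 CPM in the CKO and 12.3 and 8.10 CPM in the WT libraries. Hepatocyte-like nuclei had 6.36 and 5.84 CPM in the CKO and 5.58 and 7.18 CPM in the WT libraries, lower than macrophage-like nuclei in 3 of the 4 libraries.

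How much of each count free RNA would give was estimated from the unnamed barcodes of the same library, scaled to secreted hepatocyte transcripts in the class. For Ciita the expected share of its UMIs in macrophage-like nuclei was 24.9% and 7.32% in the CKO and 11.7% and 4.16% in the WT libraries, and in Flt3 dendritic-like nuclei of the replicate 1 libraries 2.79% in CKO and 2.85% in WT. For Cd74 in macrophage-like nuclei it was 75.1% and 46.7% in the CKO and 63.2% and 63.9% in the WT libraries. Thus most Ciita UMIs of these nuclei lay above the free RNA level, and a minority of the Cd74 UMIs did, except in CKO replicate 2. Taken over all genes, the same estimate counts most UMIs of macrophage-like nuclei as free RNA in each library. The levels and main genotype fits given here are not corrected for it. H2-Ab1 in Kupffer-like nuclei was at the free RNA level, with 101.0% in CKO replicate 1 and 104.2% in WT replicate 1 and no UMI in the replicate 2 libraries. In endothelial-like nuclei the expected share of Cd74 was 71.7% and 97.3% in the CKO and 91.6% and 88.9% in the WT libraries. Unnamed barcodes carry 14 of 14 macrophage markers at 1170 and 208 CPM in the CKO and 1138 and 308 CPM in the WT libraries; macrophage RNA is thus part of what the estimate counts as free.

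**Figure D2:**
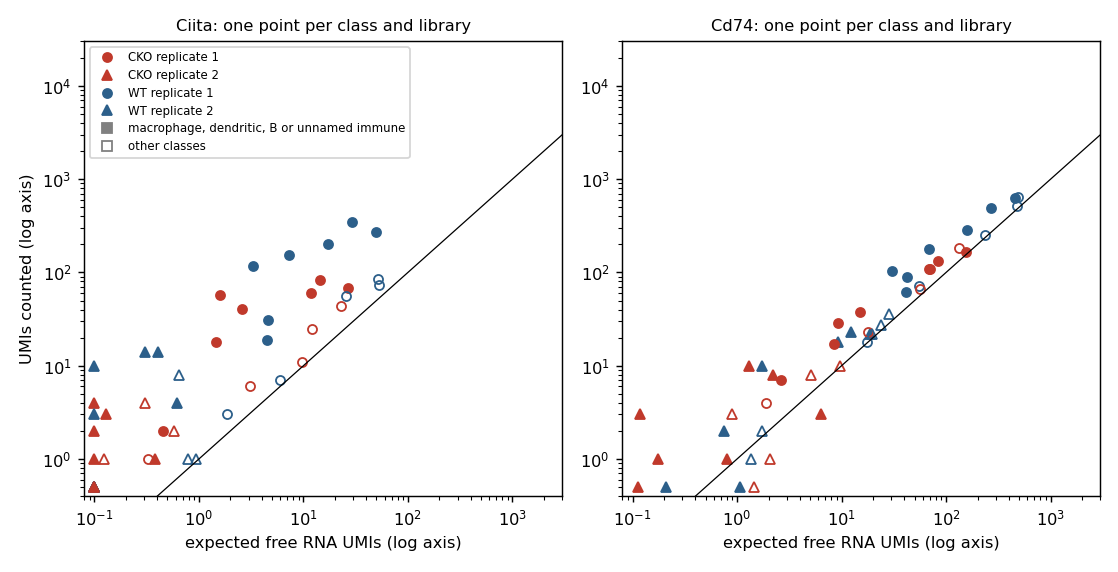
UMIs counted against UMIs expected from free RNA for Ciita (left) and Cd74 (right), 1 point per class and library, both axes logarithmic, with the line of equality; counts of 0 are drawn at 0.5 and expected values under 0.1 at 0.1. Ciita points of macrophage, dendritic, B and unnamed immune nuclei with over 10 UMIs lie well above the line, while most Cd74 points lie near it.

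Where the UMIs of each gene lay shows the same contrast. Macrophage-like nuclei gave 14.9% and 2.54% of all UMIs of the kept barcodes in the CKO and 16.1% and 5.62% in the WT libraries. They held 30.5% and 17.4% of the Ciita UMIs in the CKO and 48.1% and 37.6% in the WT libraries. Of the Cd74 UMIs they held 16.3% and 5.92% in the CKO and 22.0% and 8.24% in the WT libraries. The unnamed barcodes held 58.2% and 61.4% of Cd74 UMIs in the CKO and 37.5% and 63.3% in the WT libraries. Flt3 dendritic-like nuclei, with 0.417% of UMIs in CKO replicate 1 and 0.532% in WT replicate 1, held 8.21% and 6.80% of the Ciita UMIs of those libraries.

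The share of nuclei with a Ciita UMI was compared after thinning each nucleus to 1000 UMIs, since depth differs between classes; no kept nucleus was shallower. In Flt3 dendritic-like nuclei the thinned share was 38.3% in CKO replicate 1 (95% Clopper-Pearson interval 26.1 to 51.8%) and 43.5% in WT replicate 1 (32.8 to 54.7%), against 50.0% and 62.4% unthinned. In macrophage-like nuclei it was 3.74% and 0.625% in the CKO and 11.3% and 3.26% in the WT libraries, against 8.18% and 3.75% in the CKO and 22.2% and 6.27% in the WT libraries unthinned. Hepatocyte-like nuclei, which should lack the gene, had thinned shares of 1.07% and 0.240% in the CKO and 0.885% and 0.263% in the WT libraries. Median depths were 2192 and 1784 UMIs in CKO and 2371 and 1764 UMIs in WT macrophage-like nuclei, and 4535 and 2998 UMIs in CKO and 5298 and 3202 UMIs in WT hepatocyte-like nuclei. The macrophage-like share was above the hepatocyte-like share in each library, although in CKO replicate 2 it rests on 1 nucleus of 160. For any UMI of the class II chains or Cd74 the thinned share in macrophage-like nuclei was 16.3% and 8.75% in the CKO and 35.1% and 14.3% in the WT libraries. In the unnamed barcodes it was 13.9% and 6.33% in the CKO and 31.1% and 10.3% in the WT libraries, somewhat lower in each library.

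Among macrophage-like sub-clusters with at least 10 nuclei in all 4 libraries, Ciita was highest in one whose leading genes include Cx3cr1 and Gm5086. This sub-cluster, of neither subtype, had 78.7 and 68.6 CPM in the CKO and 253.2 and 101.6 CPM in the WT libraries. A monocyte-derived sub-cluster led by Fgf13 and Runx3 had 2 nuclei in CKO replicate 2 and was thus not ranked. Its Ciita level was 106.1 CPM in CKO replicate 1 and 173.6 and 140.1 CPM in the WT libraries. That is above the Cx3cr1 sub-cluster in CKO replicate 1 and WT replicate 2 and below it in WT replicate 1. The largest Kupffer-like sub-cluster, led by Marco, Meg3 and Cd163, had 23.3 and 9.86 CPM in the CKO and 60.4 and 23.2 CPM in the WT libraries. The Cx3cr1 sub-cluster lay above the Marco sub-cluster in each library. Its Cd74 level was 108.2 and 137.3 CPM in the CKO and 290.4 and 110.1 CPM in the WT libraries, against 83.3 and 9.86 CPM in the CKO and 194.8 and 77.3 CPM in the WT libraries in the Marco sub-cluster. Sub-clusters were made from the same nuclei without the 8 genes, and these levels are given without a test.

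The genotypes were then compared within each class with at least 10 nuclei in every library. In macrophage-like nuclei all 7 members that passed the count filter had lower fitted values in CKO than in WT libraries, but edgeR called none of them, as it called none of 12094 genes (0% called, 615 at an unadjusted p under 0.05; DESeq2 called 1). Ciita had 212 and 8 UMIs in CKO replicates 1 and 2 and 820 and 32 UMIs in WT replicates 1 and 2, that is 43.1 and 26.8 CPM in the CKO and 128.9 and 43.2 CPM in the WT libraries. The WT replicate 1 value stands apart, and CKO replicate 1 lies just under WT replicate 2. The means were 34.9 ± 11.5 CPM in the CKO and 86.0 ± 60.6 CPM in the WT libraries (SD, n = 2 each). The log2 change of CKO over WT was -1.02 (SE 0.38, adjusted p = 0.923, edgeR with Benjamini-Hochberg adjustment), and -1.29 and -0.60 within replicate numbers 1 and 2. Without WT replicate 1 it was -0.23. In simulated counts of this class, with the same relative spread for all genes, the same fit called 12% of 2-fold changes. That rate is not one for Ciita in particular. An absent call thus does not show an absent change.

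The chains behaved in the same way. H2-Aa had 22.7 and 16.7 CPM in the CKO and 62.2 and 27.0 CPM in the WT libraries, a log2 change of -0.97 (SE 0.33, edgeR adjusted p = 0.905). H2-Eb1 had 21.5 and 13.4 CPM in the CKO and 64.9 and 21.6 CPM in the WT libraries, a change of -1.06 (SE 0.39, edgeR adjusted p = 0.923). For both genes the higher CKO library lay just under the lower WT library, and the WT libraries lay further apart from each other than the CKO libraries did. H2-Ab1 had 18.1 and 10.0 CPM in the CKO and 41.5 and 6.75 CPM in the WT libraries, so the groups overlapped, and its change of -0.60 (SE 0.52) became 1.17 without WT replicate 1. H2-DMb1, the beta chain of H2-DM, had a log2 CKO to WT ratio of -0.94 (SE 0.42) and its WT replicate 2 level lay under both CKO libraries. H2-DMa had a log2 CKO to WT ratio of -0.37 (SE 0.48). Cd74 had 82.9 and 70.3 CPM in the CKO and 221.0 and 85.1 CPM in the WT libraries, a change of -0.79 (SE 0.33, edgeR adjusted p = 0.927), and -0.14 without WT replicate 1.

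**Figure D3:**
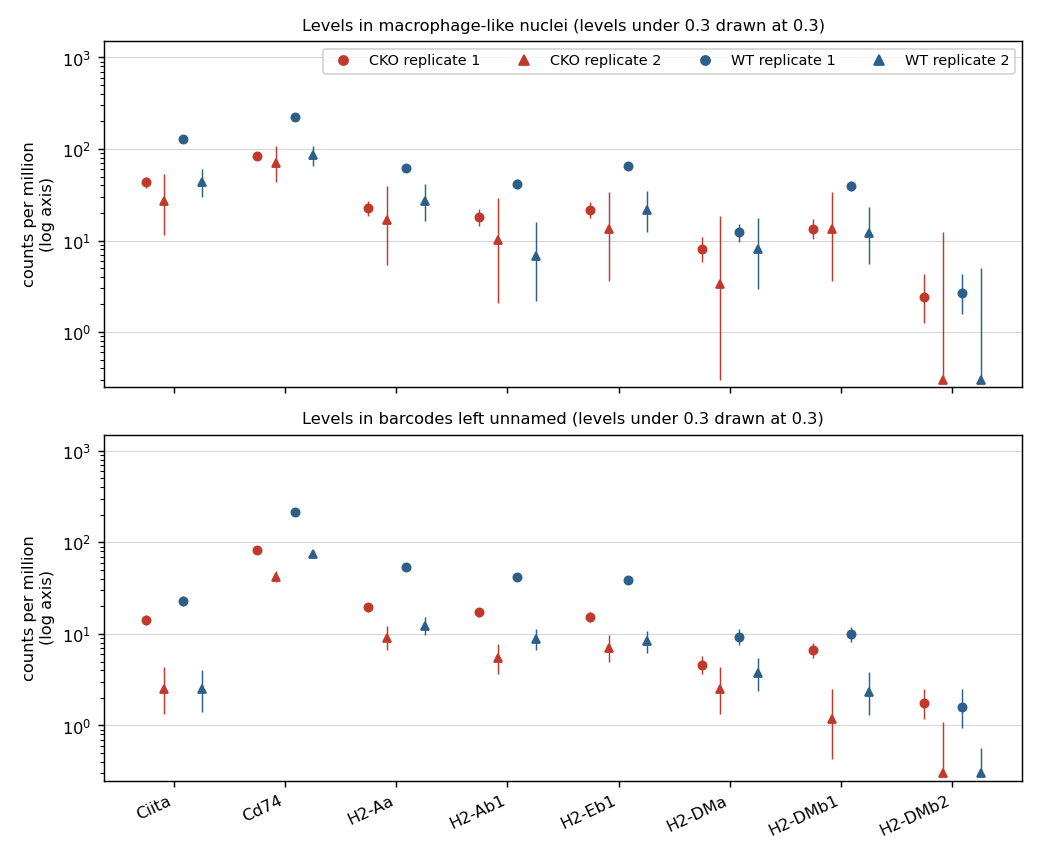
Levels of the 8 genes in macrophage-like nuclei (top) and in unnamed barcodes (bottom), in CPM on a log axis, 1 point per library with its 95% exact Poisson interval; levels under 0.3 are drawn at 0.3. WT replicate 1 is the highest of the 4 libraries for all genes in macrophage-like nuclei and for all but H2-DMb2 in unnamed barcodes.

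WT replicate 1 was also the highest library in barcodes that took no name, where Ciita had 14.1 and 2.52 CPM in the CKO and 23.1 and 2.47 CPM in the WT libraries and H2-Aa 19.5 and 9.12 CPM in the CKO and 53.5 and 12.2 CPM in the WT libraries. Over all kept barcodes the order was the same for all 8 genes, WT replicate 1 above CKO replicate 1, and both above the replicate 2 libraries. There Ciita had 21.0 and 3.92 CPM in the CKO and 43.1 and 6.45 CPM in the WT libraries, and Cd74 75.6 and 30.2 CPM in the CKO and 161.4 and 58.1 CPM in the WT libraries. Each of the 8 genes was lower in the CKO library than in the WT library of the same replicate number, and none had CKO and WT libraries apart. The labels do not pair libraries by number. In such sums fewer cells of a type and less RNA per cell cannot be told apart.

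The median log2 change of the 7 members tested in macrophage-like nuclei was -0.94, against 2.34e-05 for all 12094 genes tested. The members were chosen with earlier results known, and the 7 genes share the same libraries, so this is a description. Leaving out WT replicate 1 moved all 5 members that could still be fitted towards 0 or past it. The plot of values with each library left out shows this library apart from the other 3. Of genes that were not members, no regulator, processing, costimulation, interferon or class I gene was called in any class. Over all genes, edgeR called 0.732% in monocyte-derived macrophage-like and 0.204% in cholangiocyte-like nuclei and none in the other classes. So few calls make their absence from these lists uninformative.

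**Figure D4:**
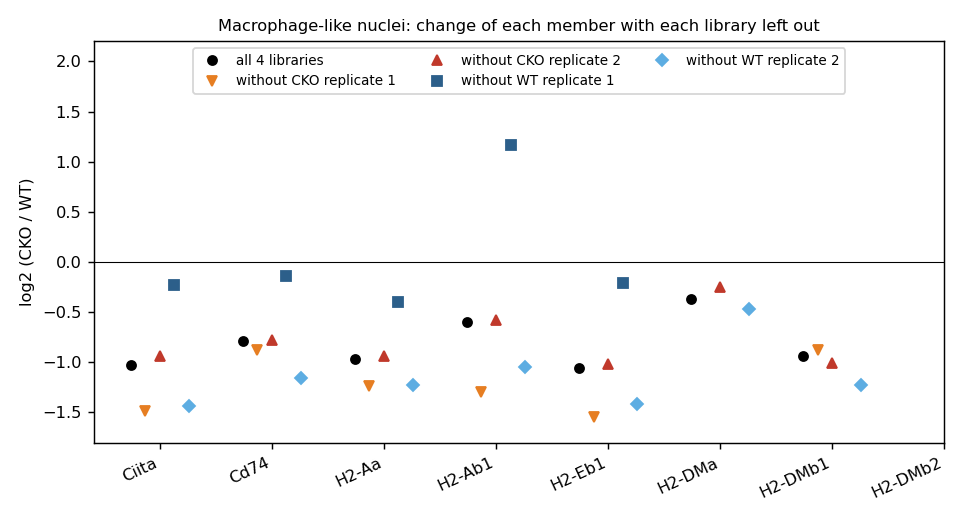
Log2 change of CKO over WT in macrophage-like nuclei for each gene tested, with all 4 libraries and with each library left out. The points without WT replicate 1 lie between -0.40 and 1.17, above the others; H2-DMb2 did not pass the count filter, and H2-DMa and H2-DMb1 did not in that fit.

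By subtype, H2-Aa and H2-Eb1 fell in monocyte-derived macrophage-like nuclei and no other member was called in a subtype. H2-Aa had 29 and 1 UMIs in the CKO and 156 and 10 in the WT libraries, or 21.1 and 24.5 CPM in the CKO and 81.6 and 43.2 CPM in the WT libraries. The fitted change was -1.59 on the log2 scale (SE 0.41; edgeR adjusted p = 0.0195). H2-Eb1 had 32 and 0 UMIs in the CKO and 177 and 7 in the WT libraries, or 23.3 and 0 CPM in the CKO and 92.5 and 30.3 CPM in the WT libraries, with a change of -1.61 (SE 0.40, edgeR adjusted p = 0.0116). For both the CKO libraries lay under the WT libraries, and the class held 583 and 21 nuclei in the CKO and 774 and 124 nuclei in the WT libraries. Unnamed barcodes had lower CKO means too: 14.3 CPM in CKO and 32.9 CPM in WT for H2-Aa, and 11.1 and 23.6 CPM for H2-Eb1. Whether the change in this class differed from that in unnamed barcodes was not tested. In this class edgeR called 65 of 8884 genes (0.732%), of which 40 (0.45%) were higher and 25 (0.281%) lower in CKO, and DESeq2 called 0. The 2 members called are 2 of 7 tested. Their p-values are those of a normal distribution of change over SE. The fit thus took the spread from the trend over genes, not from the libraries of these 2 genes.

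Both calls were lost with DESeq2 (adjusted p = 1.0 for each), after subtraction of free RNA, without the filter on low counts and with the members kept in the clustering, with the same direction in each. With counts thinned to the smallest library edgeR called 0 genes, and neither H2-Aa nor H2-Eb1 passed the count filter there. Leaving out CKO replicate 1, WT replicate 1 or WT replicate 2 ended the call of H2-Aa, at log2 changes of -1.501, -1.12 and -1.75. H2-Eb1 lost its call without WT replicate 2, at -1.90, and without CKO replicate 1, where the remaining CKO library has no UMI. Ciita had a log2 CKO to WT ratio of -0.97 (SE 0.35, edgeR adjusted p = 0.268) in the same nuclei, H2-DMb1 of -1.41 (SE 0.49, 0.246) and Cd74 of -0.60 (SE 0.36, 0.965). Cd74 turned to 0.25 without WT replicate 1 and 0.31 without CKO replicate 1. The summed dendritic markers of this class, 16 genes of which 12 and 4 had UMIs in the CKO and 15 and 8 in the WT libraries, stood at 813 and 613 CPM in the CKO and 1193 and 778 CPM in the WT libraries. Their part in the result was not tested.

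In Kupffer-like nuclei edgeR called 0 of 10365 genes (0%, 542 at an unadjusted p under 0.05; DESeq2 called 1). Cd74 had a log2 CKO to WT ratio of -1.16 (SE 0.44), Ciita of -1.10 (SE 0.55), H2-Eb1 of -0.93 (SE 0.40) and H2-DMb1 of -0.87 (SE 0.44). H2-Aa, H2-Ab1 and H2-DMa were between -0.23 and -0.61, with expected free RNA near or above their counts for H2-Ab1. In the macrophage-like nuclei of neither subtype, Ciita had a log2 CKO to WT ratio of -1.24 (SE 0.35, edgeR adjusted p = 0.508) and all 6 tested members were negative, with 0 of 7542 genes called (0%, 394 unadjusted; DESeq2 called 1). CKO replicate 2 held 104 Kupffer-like nuclei and 35 of neither subtype. Without it Ciita passed the threshold in both classes and Cd74 in Kupffer-like nuclei. The fit without CKO replicate 2 has 1 CKO library, which is assumed to vary like the 2 WT libraries. In both classes every fit with 1 library left out called more genes than the full fit, so these calls are not read as particular to the members.

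**Figure D5:**
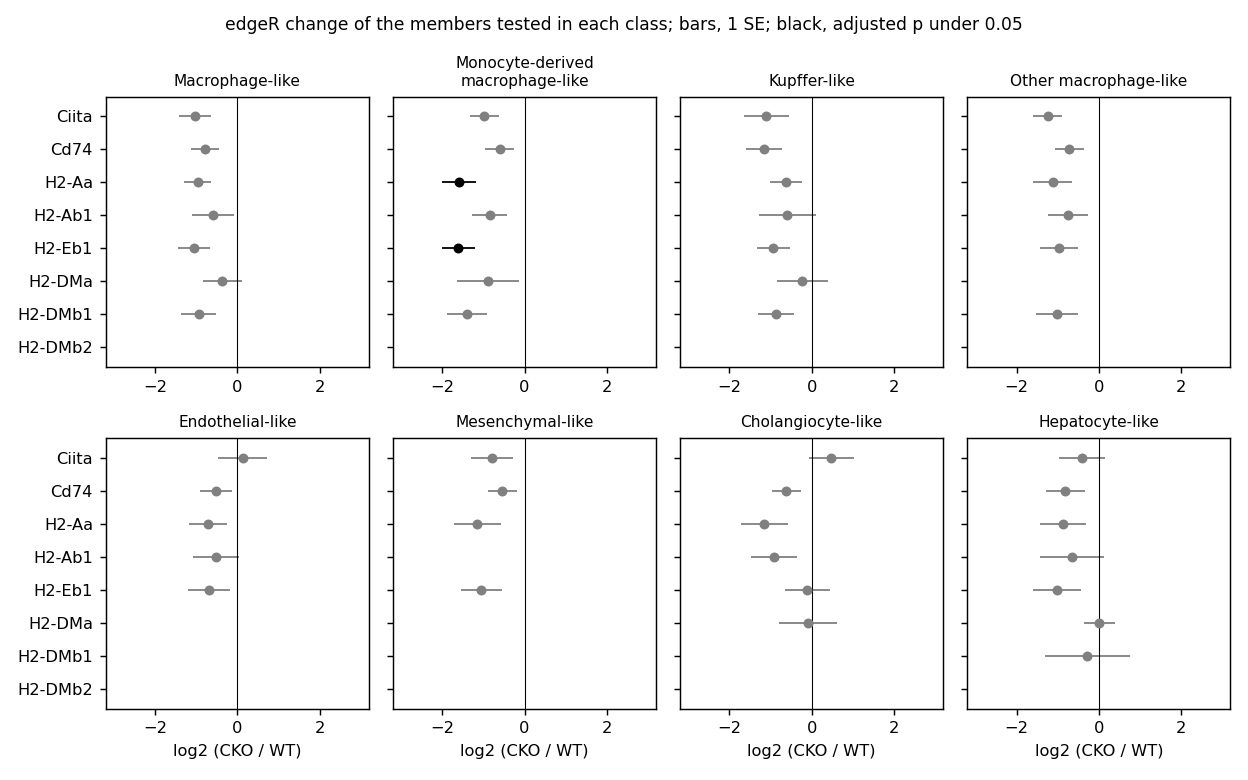
Log2 change of CKO over WT from edgeR for the members tested in each class, with bars of 1 SE; black points have an adjusted p under 0.05. The black points are H2-Aa and H2-Eb1 in monocyte-derived macrophage-like nuclei, at -1.59 and -1.61; Ciita is above 0, by less than its SE, in endothelial- and cholangiocyte-like nuclei, and turns below 0 in both when doublets are kept.

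Outside the macrophage subtypes no member was called. In cholangiocyte-like nuclei Ciita had 17.1 and 14.8 CPM in the CKO and 16.8 and 1.56 CPM in the WT libraries. Both replicate 2 values there are single UMIs, and Ciita stood at 0.48 on the log2 scale (SE 0.56; adjusted p from edgeR 1.0). H2-Aa had a log2 CKO to WT ratio of -1.15 (SE 0.57) and Cd74 of -0.62 (SE 0.35) in these nuclei, with 21 of 10288 genes called (0.204%; 12 higher, 0.117%, and 9 lower, 0.0875%) and no member among them. Endothelial-like nuclei had Ciita at 0.13 (SE 0.60) and the other 4 members tested between -0.51 and -0.71, with 0 of 10110 genes called (0%, 539 unadjusted; DESeq2 called 1). In mesenchymal-like nuclei the 4 members tested lay between -0.54 and -1.15, with 0 of 8624 genes called (0%, 656 unadjusted; DESeq2 called 1).

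Hepatocyte-like nuclei had 6 of 7 tested members negative, between -0.28 and -1.03, and H2-DMa at 0.01, with 0 of 13360 genes called (0%, 238 unadjusted; DESeq2 called 2). In T or NK-like nuclei Cd74 alone could be tested, at -0.67 (SE 0.56, 0 of 2790 genes called, 0%, 99 unadjusted; DESeq2 called 0). No member passed the count filter in Siglech dendritic-like or mesothelial-like nuclei. Flt3 dendritic-like and B-like nuclei, the named classes with the highest Ciita, had fewer than 10 nuclei in a library of each genotype and were not tested, nor was the unnamed immune sub-cluster, with 2 nuclei in CKO replicate 2. Between their replicate 1 libraries genotype and library cannot be told apart. Flt3 dendritic-like nuclei made up 1.40% and 0.411% of the nuclei in classes, hepatocyte-like ones left out and the unnamed immune sub-cluster included, in the CKO and 1.27% and 0.581% in the WT libraries. B-like nuclei made up 1.26% and 0.616% in the CKO and 1.65% and 0.166% in the WT libraries, so the low counts of both types went with the replicate 2 libraries of both genotypes.

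Whether the change in macrophage-like nuclei differed from that elsewhere was tested as the difference of changes, in a fit chosen after the values were seen. For Ciita edgeR gave a difference of -1.32 against endothelial-like nuclei (adjusted p = 0.556) and of -1.62 against cholangiocyte-like nuclei (adjusted p = 0.126). It gave -0.28 against mesenchymal-like nuclei (edgeR adjusted p = 0.999) and -1.02 against unnamed barcodes (edgeR adjusted p = 1.0), each with the library as a block. None passed, so the Ciita change is not shown to be particular to macrophage-like nuclei. These fits called 2 of 11365 genes against endothelial-like, 16 of 11307 against cholangiocyte-like and 5 of 10443 against mesenchymal-like nuclei. The fit with unnamed barcodes called 0 of 14140 genes. Against unnamed barcodes the differences of the other members were -0.16 (SE 0.36) for H2-Aa, 0.25 (SE 0.39) for H2-Ab1, -0.34 (SE 0.35) for H2-Eb1 and 0.17 (SE 0.27) for Cd74. For the H2-DM chains they were 0.22 (SE 0.53) for H2-DMa, -0.76 (SE 0.53) for H2-DMb1 and -0.29 (SE 0.97) for H2-DMb2. None passed (edgeR adjusted p = 1.0 for each), which does not show that the changes are of equal size. For H2-Aa, H2-Ab1 and Cd74 the unadjusted edgeR p-values (0.846, 0.609 and 0.817) are larger than the SEs imply. Those SEs thus understate the uncertainty.

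Other genes of the pathway were read from lists in the same fits. Of 7 class II regulators (Rfx5, Rfxank, Rfxap, Nfya, Nfyb, Nfyc and Creb1), 6 were tested in macrophage-like nuclei, 2 of them negative, with a median log2 change of 0.13. Nfyb, a subunit of the Y box factor NF-Y, had a log2 CKO to WT ratio of 0.77 (SE 0.34) and Nfya of 0.40 (SE 0.35). The other class II genes H2-Oa, H2-Ob and H2-Eb2 did not pass the count filter in any class. All 9 processing and turnover genes were tested, with a median of 0.07: Ctss, the cathepsin that trims Cd74, had a log2 CKO to WT ratio of -0.30 (SE 0.25), and Sppl2a, the protease that clears its remnant, of 0.19 (SE 0.22). In monocyte-derived macrophage-like nuclei 3 of 4 regulators tested were negative (median -0.09) and 4 of 9 processing and turnover genes (median 0.03).

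Of 15 interferon gamma response genes tested, 6 were negative and the median was 0.20. Iigp1, an interferon-inducible GTPase, had a log2 CKO to WT ratio of 0.84 (SE 0.30), with 695 and 66 UMIs in the CKO and 787 and 73 UMIs in the WT libraries, and Cd274, which encodes PD-L1 and is also in the costimulation list, of 0.76 (SE 0.29). Of 12 class I genes 6 were negative and the median was 0.02. H2-K1, a classical class I heavy chain, had a log2 CKO to WT ratio of 0.74 (SE 0.26), and H2-Q7 of -0.73 (SE 0.35). The 7 costimulation genes tested had 4 negative values and a median of -0.49, among them Cd80, a ligand of CD28, at -0.62 (SE 0.28). These genes were the ones with the smallest p in each list, and all had edgeR adjusted p between 0.905 and 1.0.

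The genes whose level over the 13 classes was most like that of Ciita, by Pearson's r of log2 CPM with a pad of 10, were Snx20 (0.955), Irf5 (0.915), Wdfy4 (0.906), Gm20707 (0.902) and Dok1 (0.899). Among the members r with Ciita was 0.968 for H2-DMb1, 0.963 for H2-Eb1, 0.948 for H2-Aa, 0.937 for Cd74, 0.925 for H2-Ab1, 0.802 for H2-DMb2 and 0.619 for H2-DMa. Most like H2-Ab1 were Mctp1 (0.916), Rbpj (0.913), Havcr2 (0.910), Map3k14 (0.903) and Snx20 (0.895), and among the 5 most like Cd74 were Arhgdia (0.925), Snx20 (0.924), Laptm5 (0.921) and Pebp1 (0.912). Rbpj, the gene deleted in progenitor cells, had 354.9 CPM in Flt3 dendritic-like nuclei of CKO replicate 1 and 835.8 CPM in those of WT replicate 1, on 49 and 176 UMIs. In macrophage-like nuclei it had 70.1 and 26.8 CPM in the CKO and 102.9 and 95.9 CPM in the WT libraries. The classes share the 4 libraries and their depth, and the same few immune classes set these values, so r is a description without a test.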

How the data were processed

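Nuclei were isolated from frozen liver with fixation in the homogenate and sequenced as 10x 3' libraries. The authors deposited raw UMI counts per gene and barcode; per the submitters' processing notes Cell Ranger 5.0.1 and mm10 were used, and whether introns were counted is not given in the sources used here. The members, marker lists and pathway lists were chosen with earlier results of these data known. The files list 32285 genes and 7 added sequences, which were left out.

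No barcode had under 500 genes. Doublets were taken as the highest Scrublet scores, 0.8% of barcodes per 1000 in a library. Barcodes were clustered with scanpy 1.11.5 on 2000 variable genes without the members (30 components, 15 neighbours, Leiden resolution 1), and immune clusters again on 15 components centred per library. A cluster took a name where at least 3 markers were raised 1.5 times over free RNA (the 10% of barcodes with fewest UMIs) and over the median cluster. Levels are summed counts per 1000000 UMIs of the class (CPM). Expected free RNA was the profile of unnamed barcodes scaled to 26 secreted hepatocyte transcripts.

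Counts summed per library and class, with at least 10 nuclei in each library, were tested two-sided with edgeR 4.0.16 (quasi-likelihood, TMM, filterByExpr, Benjamini-Hochberg adjusted p under 0.05, all genes tested adjusted together). The fitting step was first tested on simulated counts, drawn with the same relative spread between libraries for all genes. Changed genes that failed the count filter were counted as not called. There it called 12%, 6.5% and 3% of 2-fold changes in macrophage-like, Kupffer-like and monocyte-derived macrophage-like nuclei. Of 4-fold changes it called 62%, 61.7% and 53.5% in the same classes. SE is the log2 change divided by the root of F. DESeq2 1.42.0, other scaling, thinned counts, a replicate block, left-out libraries and other clustering and filter settings were alternatives. Class differences were tested in a fit added after values were seen. Named pathway genes are the 2 with the smallest p per list in macrophage-like nuclei, or any called. Some genes that these rules select are not reported here. A count of 0 allows up to 3 counts.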

Additional observations from a re-analysis of the deposited data

Results flagged for a closer look

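The Ciita change of CKO over WT differed by -1.5 (log2) between macrophage-like and cholangiocyte-like nuclei, the difference of the separate estimates: within both replicate numbers Ciita was lower in CKO in macrophage-like nuclei and higher in CKO in cholangiocyte-like nuclei. In 1 edgeR fit over both classes the difference was -1.62 (SE 0.46) and did not pass adjustment (adjusted p = 0.126). That fit called 16 of 11307 genes. Both replicate 2 cholangiocyte-like values are single UMIs. Between cholangiocyte-like and hepatocyte-like nuclei the Ciita change differed by 0.889 in the same way: it was lower in CKO within both numbers in hepatocyte-like nuclei. In 1 edgeR fit that difference was 0.86 (SE 0.62) and did not pass (adjusted p = 1). The fit called 39 of 14489 genes.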

How the results depend on the processing

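Of 594 alternative values of the 50 log2 changes of the members, 547 kept direction and side of the threshold, 14 lost a call, 6 gained one and 27 changed sign. With 1 library left out the sign turned, without WT replicate 1 unless another is named, for these changes, given from lowest to highest. H2-Ab1 ran from -1.29 to 1.17 in macrophage-like nuclei. Cd74 ran from -0.87 to 0.31 in monocyte-derived macrophage-like (also without CKO replicate 1, the 0.31; 0.25 without WT replicate 1), -2.78 to 0.0326 in cholangiocyte-like, -1.38 to 0.17 in endothelial-like and -0.88 to 0.17 in mesenchymal-like nuclei. Ciita ran from -1.04 (without CKO replicate 1; -0.31 without WT replicate 2) to 0.23 in endothelial-like, -1.12 to 0.14 (without CKO replicate 1) in mesenchymal-like and -0.89 to 0.24 in hepatocyte-like nuclei. In hepatocyte-like nuclei H2-Ab1 ran from -1.32 to 0.71, H2-DMa from -0.24 to 0.30 and H2-DMb1 from -1.81 to 1.16 (0.36 without CKO replicate 2). Free RNA subtraction turned H2-Aa in Kupffer-like (0.26), H2-Ab1 in other macrophage-like (0.13) and Cd74 in endothelial-like nuclei (1.02). Keeping doublets turned Ciita in cholangiocyte-like (-0.0522) and endothelial-like (-0.20) and H2-DMb1 in hepatocyte-like nuclei (0.38). Members in the clustering turned H2-DMa in Kupffer-like (0.0478) and H2-DMb1 in hepatocyte-like nuclei (0.28). Leiden resolution 2 gave 0.31 for H2-DMa in Kupffer-like nuclei, at least 1000 genes per barcode 0.22 for H2-DMb1 in hepatocyte-like nuclei, thinned counts 0.0225 for Cd74 in monocyte-derived macrophage-like nuclei, and DESeq2 0.26 for H2-Eb1 and 0.54 for H2-DMa in cholangiocyte-like nuclei. The causes were not tested.

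The number of genes called moved more. With 1 library left out it ran from 0 to 255 in macrophage-like, 11 to 367 in Kupffer-like, 9 to 164 in monocyte-derived macrophage-like (65 with all 4), 1 to 144 in other macrophage-like, 0 to 22 in Siglech dendritic-like, 0 to 36 in T or NK-like, 7 to 201 in cholangiocyte-like (21 with all 4), 0 to 415 in endothelial-like, 24 to 337 in mesenchymal-like, 0 to 11 in mesothelial-like and 0 to 344 in hepatocyte-like nuclei. Without the filter on low counts 131, 113, 21, 113, 91 and 144 genes were called in macrophage-like, Kupffer-like, other macrophage-like, cholangiocyte-like, endothelial-like and mesenchymal-like nuclei. DESeq2 called 1 gene each in macrophage-like, Kupffer-like, other macrophage-like, endothelial-like and mesenchymal-like, 2 in hepatocyte-like and 0 in monocyte-derived macrophage-like and cholangiocyte-like nuclei. At least 1000 genes per barcode gave 109, 69, 108 and 40 calls in macrophage-like, Kupffer-like, other macrophage-like and endothelial-like and 0 in cholangiocyte-like nuclei. Free RNA subtraction gave 0 in monocyte-derived macrophage-like and 1 in cholangiocyte-like and in Siglech dendritic-like nuclei (it was not run for hepatocyte-like nuclei), keeping doublets 1 in Siglech dendritic-like nuclei, thinned counts 0 in monocyte-derived macrophage-like and cholangiocyte-like nuclei, and members in the clustering 18 in other macrophage-like and 3 in hepatocyte-like nuclei.

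The labels do not say that a replicate number pairs libraries, and the correlation of same-numbered deviations was 0.0436 to 0.274 over the classes. With a replicate block the calls were 77 in macrophage-like, 4 in Kupffer-like, 29 in monocyte-derived macrophage-like, 6 in other macrophage-like, 2 in Siglech dendritic-like and 4 in endothelial-like nuclei. In monocyte-derived macrophage-like nuclei H2-Aa then had an adjusted p of 0.0613 and H2-Eb1 of 0.0285 (edgeR). With 2 libraries a group, and 21 monocyte-derived macrophage-like nuclei in CKO replicate 2, depth limits these comparisons. Of 528 alternative levels of the members 43 moved by more than the spread between libraries.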
